A study of Homo sapiens with 8 samples.

Results

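ZCWPW2 and 4 protein-coding genes beside it on chromosome 3 (EOMES, CMC1, AZI2 and RBMS3) were followed over the 4 conditions of an RNA-Seq experiment on DU145, a human prostate cancer cell line. ZCWPW2 was chosen because its mRNA was far higher in untreated cells that expressed Esrrb. The other 4 genes were chosen for their place on the map. The 5 genes are 5 of 23391 in the deposited table, and all 5 were among the 13856 genes tested, which reached 1 cpm (counts-per-million) or more in 2 or more libraries. All cells were DU145 kept in 150 μg/ml Zeocin for 3 weeks and then pooled, so each pool is a mix of transfected cells and not a clone. DU145-pc3.1 carried the empty vector pcDNA3.1-zeo (+), and DU145-Esrrb carried the same vector with Esrrb. Each pool was left untreated or was given 3 μM DY131, a synthetic ligand of Esrrb and the related receptor Esrrg, in medium with charcoal-stripped serum. The length of the treatment was not given in the sources used here. Each of the 4 groups had 2 libraries, which the paper calls biological replicates. Whether they came from separate transfections is not clear from the sources used here. If they did not, their spread leaves out differences between transfections.

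Esrrb is an orphan nuclear receptor, a transcription factor that binds DNA at the estrogen related receptor response element and for which no natural ligand is established. ZCWPW2 carries a CW-type zinc finger and a PWWP domain. Both kinds of domain are known for holding methylated lysines of histone tails, and the related ZCWPW1 reads the histone marks that PRDM9 sets in meiosis. AZI2, also called NAP1, is an adaptor of the kinases TBK1 and IKKε in the antiviral interferon response. CMC1 helps to assemble cytochrome c oxidase in mitochondria. EOMES is a T-box transcription factor of the early embryo and of lymphocytes, and RBMS3 is a protein that binds single-stranded RNA and DNA.

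In GENCODE release 29 on GRCh38, a later build than the hg18 to which the reads were mapped, the 5 genes lie in the order EOMES, CMC1, AZI2, ZCWPW2, RBMS3. EOMES was annotated at chr3:27715949-27722711 on the minus strand and CMC1 at chr3:28241584-28325142 on the plus strand. AZI2 was at chr3:28315003-28349127 on the minus strand, ZCWPW2 at chr3:28349146-28538122 on the plus strand and RBMS3 at chr3:28574791-30010391 on the plus strand. AZI2 and ZCWPW2 thus point away from each other, with 18 bases between their annotated starts. In RefSeq on GRCh38.p14 the starts are placed so that the 5′ ends of the transcripts overlap by 104 bases. The starts of this pair are printed because it holds, of the 5 genes, the one that was raised most and the neighbour that stood higher in the same cells. In each, the capitals begin at the RefSeq start, and the lower case lies before it.
ZCWPW2 start, plus strand, chr3:28348706-28348735: gcttccggtttcttcGAAGACACCGCCGCT
AZI2 start, minus strand, chr3:28348810-28348839: tgcctcggctcgtccCTCCTTCCAGAACGT
The GENCODE start of ZCWPW2, at chr3:28349146, lies downstream of this RefSeq start. The stretch from 243 to 121 bases before the RefSeq start of ZCWPW2 lies, by GENCODE, outside annotated exons of either gene and inside the AZI2 gene body. It is shown on the plus strand with its 10 CG pairs in capitals, since start regions of this kind are often rich in CG.
ZCWPW2 upstream, chr3:28348478-28348600: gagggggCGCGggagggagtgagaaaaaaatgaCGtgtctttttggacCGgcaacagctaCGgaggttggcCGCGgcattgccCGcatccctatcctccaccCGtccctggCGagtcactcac

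The 300 bases from 250 before to 50 after each RefSeq start held 29 CG pairs for ZCWPW2, 33 for AZI2, 22 for CMC1, 21 for EOMES and 10 for RBMS3. The letters AAGGTCA, the core of the estrogen related receptor response element, were searched for on both strands of these windows. None of the 5 windows held them, while 3.92% of the 35116 promoters of the same length in the RefSeq table did. This says only that these letters were not in these windows, which for ZCWPW2 and AZI2 do not hold the GENCODE starts.

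Library totals ran from 7858743 to 11551690 counts, and the 2 libraries of DY131-treated DU145-Esrrb were the smallest. A count of 3 came to between 0.254 and 0.391 cpm, which sets the lowest level that could be told from 0 in a library. ESRRB itself was looked at first as a check of the labels. It had 3 and 0 counts in untreated DU145-pc3.1, 0 and 1 in DY131-treated DU145-pc3.1, 104 and 99 in untreated DU145-Esrrb, and 105 and 143 in DY131-treated DU145-Esrrb. The counts went with the labelled pool in all 8 libraries. The 5 epithelial markers (EPCAM, CDH1, KRT8, KRT18 and KRT19) summed to between 2501 and 3163 cpm. The markers moved both ways. CDH1, E-cadherin, fell with Esrrb in untreated cells by 0.54 (SE 0.11, adjusted p = 0.0114) and with DY131 in both pools (by 0.75 in DU145-pc3.1 and 0.70 in DU145-Esrrb), and it was called lower in DY131-treated DU145-Esrrb than in untreated DU145-pc3.1 (-1.25, SE 0.12, adjusted p = 4.53e-07). In that last comparison EPCAM was also lower (-0.40, SE 0.07), KRT8 was higher (0.57, SE 0.09), and KRT18 and KRT19 did not pass. Of the 3 fibroblast markers, DCN had no count, and their sum was 2.74 to 2.94 cpm in DY131-treated DU145-Esrrb against 3.57 to 5.79 cpm in the other groups. The part of this in any result was not tested.

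**Figure D1:**
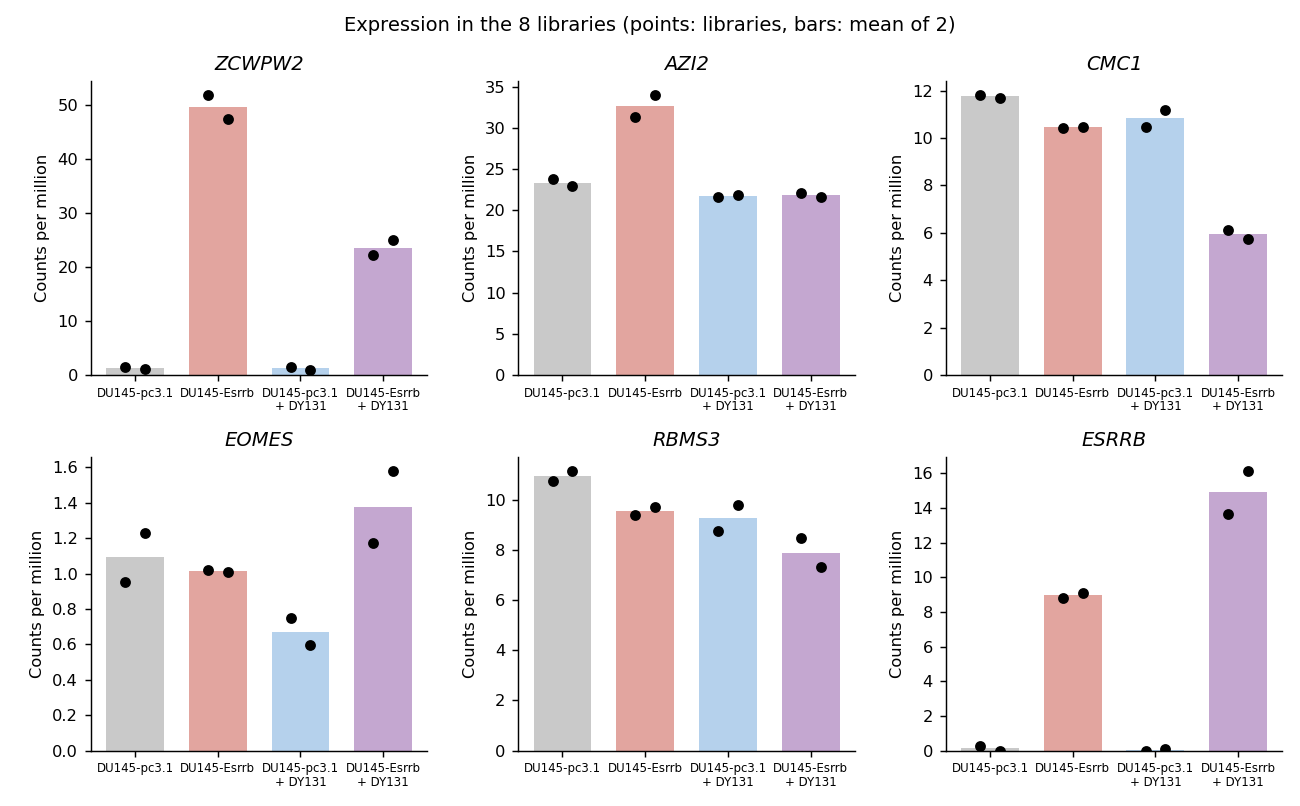
Counts-per-million (cpm, y axis, each panel with its own scale from 0) of ZCWPW2, its 4 neighbours and ESRRB in the 4 groups (x axis). Points are libraries and bars are means of 2 libraries. ZCWPW2 was at 47.4 and 51.9 cpm in untreated DU145-Esrrb, at 22.1 and 24.96 cpm with DY131, and at most at 1.53 cpm in DU145-pc3.1.

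ZCWPW2 was low in DU145-pc3.1 cells, though counted in every library, and was far higher where Esrrb was expressed. It had 16 and 13 counts, or 1.53 and 1.14 cpm, in the untreated DU145-pc3.1 libraries. It had 612 and 516 counts, or 51.9 and 47.4 cpm, in the untreated DU145-Esrrb libraries. The Wilson 95% interval of the highest DU145-pc3.1 library ended at 2.48 cpm, and that of the lowest untreated DU145-Esrrb library began at 43.5 cpm (these intervals cover counting error only). The means were 1.34 ± 0.27 and 49.7 ± 3.17 cpm (SD, n = 2), a fitted difference of 5.21 on the log2 scale (SE 0.17), or 37.1-fold. This comparison chose the gene, so it is given as a description. Since the cells were pools and the RNA was bulk, a rise in every cell and a larger rise in some cells cannot be told apart.

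The same contrast in the DY131-treated cells compared none of the libraries that chose the gene, though all 8 libraries went into the spread that the model estimated. The treated cells came from the same pools, so any other difference between the pools would be found in both contrasts. The test below measures spread between libraries and cannot separate Esrrb from such a difference. With DY131 ZCWPW2 had 16 and 9 counts (1.49 and 0.892 cpm) in DU145-pc3.1 and 170 and 221 counts (22.1 and 24.96 cpm) in DU145-Esrrb. Every DU145-Esrrb library was above every DU145-pc3.1 library, as was so for 36.9% of all genes. ZCWPW2 was 19.5-fold higher in the Esrrb pool (log2 fold change 4.28, SE 0.21, 95% interval 3.84 to 4.72, adjusted p = 3.73e-10, by the quasi-likelihood test of edgeR, Benjamini-Hochberg adjusted over all genes tested). In this comparison 8.21% of all genes tested were called, which here means an adjusted p under 0.05 with a log2 fold change of at least 1 in size, and 2.15% were called higher. Leaving out any library kept the value between 3.97 and 4.70. Between DY131-treated DU145-Esrrb and untreated DU145-pc3.1 the difference was 4.14 (SE 0.20), given as a description since the untreated DU145-pc3.1 libraries took part in choosing the gene. Of all genes 12.8% were called there.

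With DY131, ZCWPW2 in DU145-Esrrb came down to 0.475 of its untreated level but stayed far above the empty-vector pool. The 51.9 and 47.4 cpm of the untreated libraries became 22.1 and 24.96 cpm in the treated ones, and the groups did not overlap, which held in this direction for 41.6% of all genes. ZCWPW2 was lower by a log2 fold change of -1.07 (SE 0.11, 95% interval -1.31 to -0.84). DY131 moved many genes in this pool. Of all genes 58.7% passed the adjusted p, 29.5% in the lower direction, and 12% were called, with 9.04% of all genes called lower. The untreated Esrrb libraries that helped to choose ZCWPW2 are the reference of this change, so it is given as a description with no test. ESRRB, measured in the same libraries, went the other way, from 8.82 and 9.10 cpm to 13.7 and 16.2 cpm, a rise of 0.74 (SE 0.19, adjusted p = 0.00315). The size of the change passed 1 only narrowly. It was -0.99 without 1 of the treated libraries, -0.86 after each library was corrected for the length and GC content of transcripts, and -0.82 (SE 0.11) after a correction for exon junctions, described further on.

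In DU145-pc3.1 no response of ZCWPW2 to DY131 was detectable at this depth. The counts were 16 and 13 without and 16 and 9 with DY131, and the groups overlapped. The difference was -0.14 (SE 0.37, 95% interval -0.92 to 0.63), again a description, with a range that holds both no change and a fall close to that in DU145-Esrrb. In this pool 4.19% of genes were called and 37.4% passed the adjusted p. The paper, by contrast, reports no gene altered by DY131 without Esrrb. It used the exact test of edgeR, with stated thresholds like those for a call here. Why the results differ was not tested. The difference between the 2 responses, the interaction, was -0.93 (SE 0.39). All 4 untreated libraries that chose ZCWPW2 enter it, so it is given as a description, and a response that differs between the pools was not shown. Without DU145-pc3.1 DY131 replicate 2, the library with 9 counts, the interaction was -1.24, and without replicate 1 of that group it was -0.52. The 2 libraries of that group also differed from each other more than those of any other group, with a chi-square per degree of freedom of 7.30 over all genes against 1.29 to 2.67.

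Thus the order of ZCWPW2 levels was untreated DU145-Esrrb, then DY131-treated DU145-Esrrb, then both DU145-pc3.1 groups, which did not differ beyond their spread. The annotation leaves a doubt about some of its reads. Of the 50-base windows of the ZCWPW2 transcript, 32.2% also fit a longer gene on the same strand that GENCODE lists as protein-coding, AC098650.1 (chr3:28349178-29767537), which begins beside ZCWPW2, runs into RBMS3 and is not a row of the table. The same gene takes 18.9% of the windows of RBMS3. How reads in such windows were assigned is not given in the sources used here. The paper reports the change of ZCWPW2 with Esrrb by qPCR as well, a measure without read assignment.

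**Figure D2:**
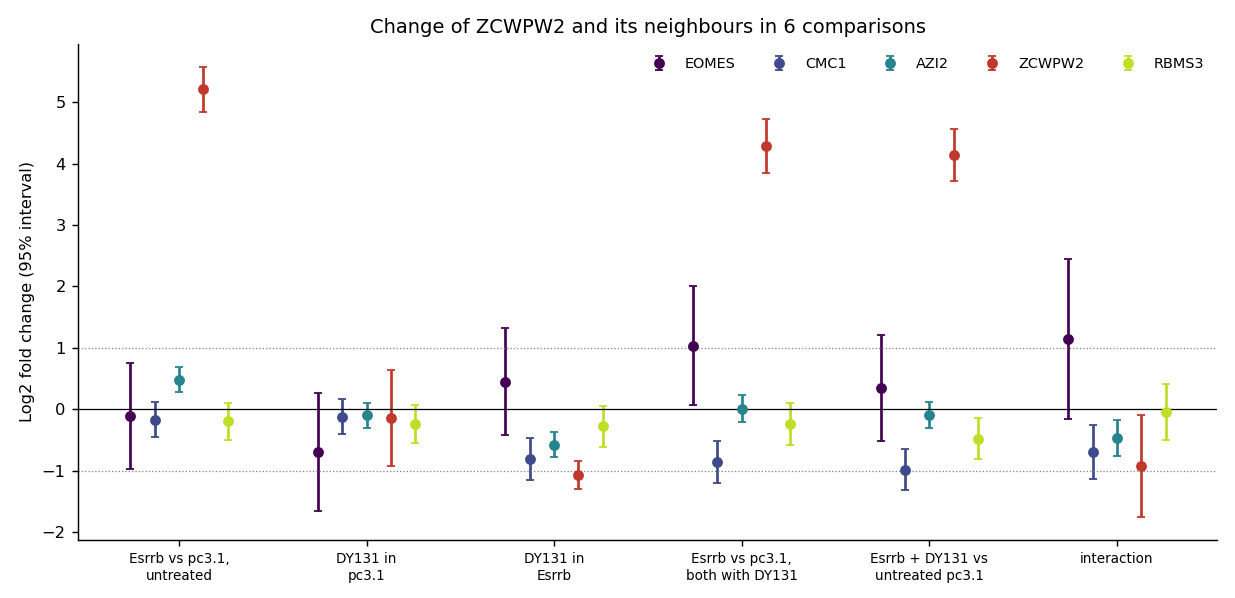
Log2 fold change (y axis) of the 5 genes in 6 comparisons (x axis), with points for the estimates and bars for their 95% intervals. The dotted lines mark a log2 fold change of 1 in either direction. ZCWPW2 stands between 4.14 and 5.21 in the 3 comparisons of the Esrrb pool with DU145-pc3.1, while the neighbours lie between -0.99 and 1.03.

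None of the 4 neighbours rose with Esrrb in the way of ZCWPW2. In untreated cells 1 of the 4, AZI2, passed the adjusted p, against 4.17% of all genes tested (1.68% higher), and none was called, against 0.577%. The median change of the 4 was -0.14, and that of all genes was 0.00. CMC1 and RBMS3 each had both DU145-Esrrb libraries below both DU145-pc3.1 libraries without passing, a pattern that 25.8% of all genes showed. Their differences were -0.17 (95% interval -0.45 to 0.11, adjusted p = 0.579) and -0.20 (95% interval -0.50 to 0.11, adjusted p = 0.532), so a rise of even 0.2 lay outside both intervals.

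AZI2, which shares its start region with ZCWPW2, was the neighbour that stood higher with Esrrb, and only without DY131. The RefSeq 5′ ends of this pair overlap by 104 bases on opposite strands. Whether the counting used the strand is not given in the sources used here. If it did not, some ZCWPW2 reads could be counted as AZI2, and their part in the AZI2 values was not tested. AZI2 had 249 and 261 counts (23.7 and 23.0 cpm) in untreated DU145-pc3.1 and 369 and 370 counts (31.3 and 34.0 cpm) in untreated DU145-Esrrb. All Esrrb libraries were above all control libraries, as they were for 25.7% of all genes. AZI2 rose 1.40-fold (log2 fold change 0.48, SE 0.09, 95% interval 0.29 to 0.68, adjusted p = 0.00707). The step is small beside the 37.1-fold of ZCWPW2, and the adjusted p missed the threshold with DESeq2 (0.0625) and without DU145-pc3.1 replicate 1 (0.0607), DU145-pc3.1 replicate 2 (0.0924) or DU145-Esrrb replicate 2 (0.124).

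With DY131, AZI2 was at 22.1 and 21.6 cpm in DU145-Esrrb and at 21.7 and 21.8 cpm in DU145-pc3.1, and the groups overlapped. The difference between the pools was then 0.01 (SE 0.10, 95% interval -0.21 to 0.23, adjusted p = 0.961). In DU145-Esrrb, AZI2 fell with DY131 by 0.58 (SE 0.10, adjusted p = 1.14e-04). In DU145-pc3.1 the difference was -0.10 (SE 0.10, adjusted p = 0.441). The interaction was -0.48 (SE 0.14, adjusted p = 0.0156), and 33.7% of all genes passed for the interaction, 17.6% with a negative value. It did not hold with DESeq2 (-0.48, adjusted p = 0.115) or after the correction for exon junctions (-0.32, adjusted p = 0.109), nor without DU145-pc3.1 replicate 2 (adjusted p = 0.0558), DU145-Esrrb replicate 2 (0.0747) or 1 treated DU145-Esrrb library (0.0638). AZI2 and ZCWPW2 thus both stood higher in untreated than in DY131-treated DU145-Esrrb, but ZCWPW2 with DY131 stayed 19.5-fold above its control and AZI2 did not differ from its control by more than the interval given above. The rise with Esrrb and the fall with DY131 of both genes share the untreated DU145-Esrrb libraries.

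CMC1, the next gene beyond AZI2, was low in the DY131-treated Esrrb pool, and the differences among the other 3 groups did not pass where tested. It had 124 and 133 counts (11.8 and 11.7 cpm) in untreated DU145-pc3.1, 123 and 114 (10.4 and 10.5 cpm) in untreated DU145-Esrrb, and 112 and 113 (10.5 and 11.2 cpm) in DY131-treated DU145-pc3.1. In DY131-treated DU145-Esrrb it had 47 and 51 counts (6.12 and 5.76 cpm), below the other 6 libraries. CMC1 fell with DY131 in DU145-Esrrb by 0.82 (SE 0.16, adjusted p = 4.09e-04). It was lower by a log2 fold change of -0.87 (SE 0.16, adjusted p = 3.56e-04) than in DY131-treated DU145-pc3.1, a comparison in which 50.4% of genes passed, 25.3% lower. In DU145-pc3.1 the DY131 difference was -0.12 (SE 0.13, adjusted p = 0.516). The interaction was -0.70 (SE 0.21, adjusted p = 0.0183). It missed the threshold with DESeq2 (adjusted p = 0.149), and narrowly without DU145-pc3.1 replicate 2, either untreated DU145-Esrrb library or 1 treated one (adjusted p from 0.0502 to 0.0795).

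CMC1 and AZI2 lie on opposite strands and their gene bodies overlap by 10140 bases. The transcripts listed in the table share no exon base, but 56.2% of the 50-base windows of CMC1 lie opposite to some AZI2 transcript. The library kit keeps the strand, and whether the counting used it is not given in the sources used here. If it did not, reads of this pair cannot be told apart in those windows.

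EOMES was barely present. It had 10 and 14 counts in untreated DU145-pc3.1, 12 and 11 in untreated DU145-Esrrb, 8 and 6 in DY131-treated DU145-pc3.1, and 9 and 14 in DY131-treated DU145-Esrrb. No library was above 1.58 cpm, and the first of these groups overlapped with the second and with the last. None of its 6 tests passed. The difference between the pools was -0.11 without DY131 (SE 0.41, 95% interval -0.97 to 0.75, adjusted p = 0.933) and 1.03 with it (SE 0.46, 95% interval 0.07 to 2.00, adjusted p = 0.0708). The counts leave room for changes of more than 1.5-fold either way in untreated cells, and a rise of the size of that of ZCWPW2 was far outside the interval.

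RBMS3, on the other side of ZCWPW2, had small negative differences that mostly did not pass. It was at 10.8 and 11.2 cpm (113 and 127 counts) in untreated DU145-pc3.1 and at 9.41 and 9.74 cpm (111 and 106 counts) in untreated DU145-Esrrb. With DY131 it was at 8.78 and 9.81 cpm (94 and 99 counts) in DU145-pc3.1 and at 8.47 and 7.34 cpm (65 and 65 counts) in DU145-Esrrb. No single factor passed: the differences were -0.20 with Esrrb, -0.24 with DY131 in DU145-pc3.1 (adjusted p = 0.207) and -0.28 with DY131 in DU145-Esrrb (adjusted p = 0.14). DY131-treated DU145-Esrrb was below untreated DU145-pc3.1 by 0.48 (SE 0.16, adjusted p = 0.0154), in a comparison in which 59.3% of genes passed, 30.1% lower. That result missed the threshold with DESeq2 (adjusted p = 0.115), after the correction for exon junctions (-0.30, adjusted p = 0.127), and without DU145-pc3.1 replicate 2 (0.0712) or 1 treated Esrrb library (0.139).

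Levels of different genes were compared per length, as cpm per kilobase of the listed transcript. In untreated DU145-pc3.1 the level was 17.1 for AZI2, 3.98 for RBMS3, 1.95 for CMC1, 0.778 for ZCWPW2 and 0.323 for EOMES. In untreated DU145-Esrrb ZCWPW2 was first with 28.9 ± 1.85, above AZI2 with 23.9 ± 1.40 (SD, n = 2). By the listed transcripts AZI2 was again first in DY131-treated DU145-Esrrb, with libraries at 15.8 and 16.2 against 12.9 and 14.5 for ZCWPW2. The order depends on the transcript. With the longest transcript of each gene the untreated DU145-pc3.1 level was 4.96 for AZI2 and 1.28 for RBMS3, which then stood below CMC1. In DY131-treated DU145-Esrrb the order of the first 2 genes turned, with 4.64 for AZI2 against 13.7 for ZCWPW2.

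Farther along this part of the chromosome, 27 protein-coding genes from UBE2E2 to GLB1 were listed, of which 21 were tested. The other 6 (RARB, LRRC3B, NEK10, GADL1, TRIM71 and CCR4) had at most 5 counts in a library. In untreated cells SLC4A7, a bicarbonate transporter 0.86 Mb before ZCWPW2, rose with Esrrb by 0.39 (SE 0.08, adjusted p = 0.0120) and OSBPL10, an oxysterol-binding protein, fell by 0.31 (SE 0.08, adjusted p = 0.0449). These 2 of 21 come to 9.52%, beside 4.17% of all genes. None of the 21 was called, beside 0.577% of all genes, and their median change was 0.03. The nearest tested gene on the far side of RBMS3, the TGF-β receptor gene TGFBR2, differed by -0.23 (SE 0.08, adjusted p = 0.121). The tested genes of the lists start from 5.15 Mb before to 4.75 Mb after ZCWPW2. Apart from ZCWPW2, which this comparison chose, none of them was called with Esrrb in untreated cells.

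With DY131 in DU145-pc3.1, 4 of the 21 genes rose (SLC4A7, NGLY1, DYNC1LI1 and STT3B) and none fell, with 37.4% of all genes passing. With DY131 in DU145-Esrrb, 7 rose and 6 fell, or 61.9% beside 58.7% of all genes. Of these only ZNF860, a zinc finger gene 3.63 Mb after ZCWPW2, was called, where 12% of all genes were called. It rose by 1.25 (SE 0.14, adjusted p = 2.49e-06), and after the correction for exon junctions it was not called. Between the DY131-treated pools 7 rose and 4 fell, or 52.4% beside 50.4% of all genes. With DY131 in DU145-Esrrb genes on both sides of the group AZI2, CMC1 and ZCWPW2 moved both ways.

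**Figure D3:**
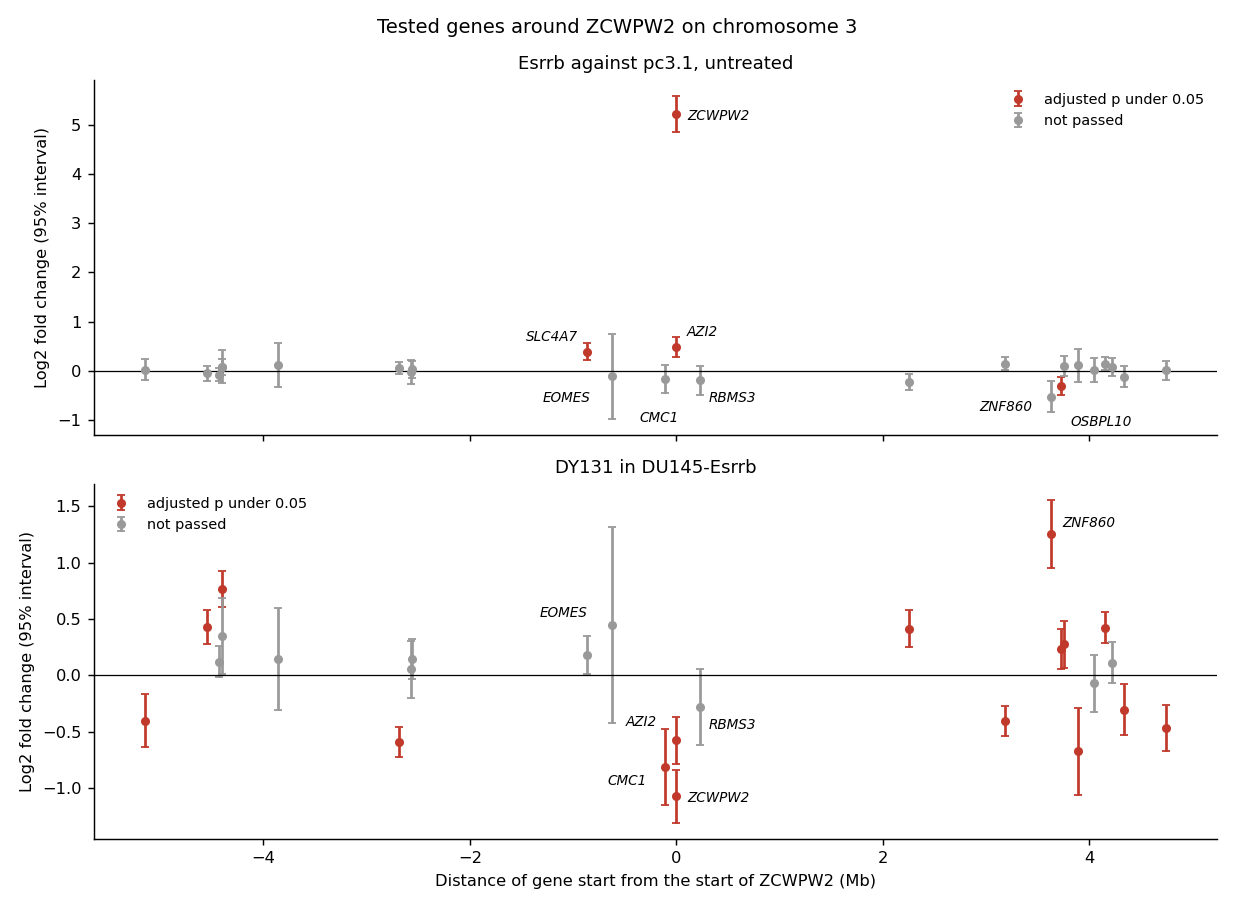
Log2 fold change (y axis, with 95% intervals) of tested genes against the distance of their start from that of ZCWPW2 (x axis, Mb on GRCh38), for Esrrb in untreated cells (top) and DY131 in DU145-Esrrb (bottom). Red points passed an adjusted p under 0.05, and ZCWPW2 in the top panel is there by choice. In the top panel ZCWPW2 stands at 5.21, while every other gene lies between -0.52 and 0.48.

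A trend over all genes ran beside the DY131 changes in DU145-Esrrb. Tested genes were put in 10 equal groups by the share of their 50-base windows that cross an exon junction. The median DY131 change in DU145-Esrrb went from 0.27 in the group with the fewest junctions to -0.56 in that with the most, while in DU145-pc3.1 the medians stayed between -0.03 and 0.03. ZCWPW2 had 26.3% of such windows and was in group 9, where the median was -0.30. AZI2 (22.3%) and RBMS3 (23.4%) were in group 8, with a median of -0.16. CMC1 (2.46%) was in the first group, whose median was higher, and EOMES (7.34%) was in the third.

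Each library was then corrected for this share and the fits were repeated. The fall of ZCWPW2 with DY131 in DU145-Esrrb went from -1.07 to -0.82 and that of AZI2 from -0.58 to -0.43 (adjusted p = 0.00182), which still passed. For ZCWPW2 this is given as a description, as its reference helped to choose it. The fall of CMC1 became larger, from -0.82 to -1.07 (adjusted p = 4.06e-05). This is past the threshold for a call, but the share of all genes called after this correction is not given here. The junction share of CMC1 was that of its longest transcript, with 6033 bases of which 318 are coding. Another transcript could have another share and another correction, which was not tested. The value of RBMS3 went from -0.28 to -0.10 (adjusted p = 0.614). The rise of ZCWPW2 with Esrrb among DY131-treated cells was 4.54 after the correction.

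**Figure D4:**
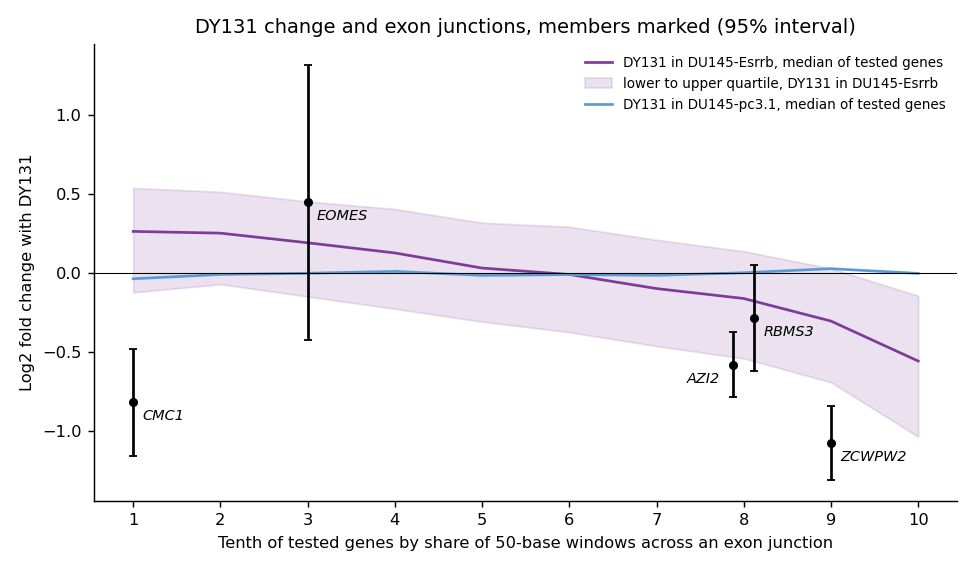
Log2 fold change with DY131 (y axis) over 10 groups of tested genes ordered by the share of 50-base windows across an exon junction (x axis). The purple line is the median in DU145-Esrrb with the range between the quartiles shaded, the blue line is the median in DU145-pc3.1, and black points are the 5 genes in DU145-Esrrb with 95% intervals. ZCWPW2 at -1.07, AZI2 at -0.58 and CMC1 at -0.82 lie below the shaded band, and the interval of RBMS3 crosses the median.

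The genes that work with these proteins were counted next. Where none of a list passed with Esrrb in untreated cells, this stands beside 4.17% of all genes, so that in lists of this size it says little about the list. Of 6 other genes with CW domains (ZCWPW1, MORC1, MORC2, MORC3, MORC4 and KDM1B), 5 were tested and none passed with Esrrb in untreated cells, where their changes lay between 0.05 and 0.20. ZCWPW1, the closest relative of ZCWPW2, was higher by 0.20 (SE 0.24, adjusted p = 0.738). With DY131 in DU145-Esrrb 3 of the 5 fell (ZCWPW1 by 0.73, KDM1B by 0.51 and MORC2 by 0.43) and MORC3 rose by 0.22, so that 4 of 5 passed beside 58.7% of all genes. ZCWPW1 was called for the interaction (-1.05, SE 0.37, adjusted p = 0.0386), where 6.28% of all genes were called. Of 7 genes of enzymes that methylate H3K4, PRDM9 had no count in any library. The other 6, from the SET1 and MLL families (symbols as in the table), did not pass with Esrrb in untreated cells, and between the DY131-treated pools MLL2 was lower (-0.44, SE 0.10) and SETD1B higher (0.42, SE 0.10). With DY131, 4 of the 6 rose in DU145-pc3.1 (MLL by 0.81, MLL2 by 0.80, MLL4 by 0.60 and MLL3 by 0.34), or 66.7% beside 37.4% of all genes, and 3 rose in DU145-Esrrb (MLL4 by 0.47, SETD1B by 0.45 and MLL by 0.45), or 50% beside 58.7%.

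Of 6 partners of AZI2 in the interferon pathway (TBK1, IKBKE, TANK, TBKBP1, IRF3 and IFNB1), 5 were tested, and IFNB1 had at most 2 counts. None passed with Esrrb in untreated cells. TBK1, the kinase that AZI2 holds, fell with DY131 in DU145-Esrrb by 0.23 (SE 0.08, adjusted p = 0.0218), and its fellow adaptor TANK fell by 0.65 (SE 0.12, adjusted p = 3.05e-04), so 2 of 5 passed beside 58.7% of all genes. TANK also fell with DY131 in DU145-pc3.1, by 0.30 (SE 0.11, adjusted p = 0.0404), and its interaction did not pass (adjusted p = 0.121), while that of TBK1 did (-0.30, SE 0.11, adjusted p = 0.0430). Between the DY131-treated pools 4 of the 5 passed, 1 higher and 3 lower, or 80% beside 50.4% of all genes. No member of the list was called in any of the 6 comparisons, in which 0.577% to 12.8% of all genes were called.

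CMC1 was set beside 10 genes of cytochrome c oxidase assembly, all of them tested. None passed with Esrrb in untreated cells. With DY131 in DU145-Esrrb 4 fell and 2 rose, or 60% beside 58.7% of all genes. COX17, the copper carrier of the assembly, fell by 2.08 (SE 0.22, adjusted p = 1.44e-06), and SURF1, which helps to insert heme, fell by 1.00 (SE 0.11, adjusted p = 2.22e-06). In DU145-pc3.1 COX17 differed by 0.18 (SE 0.16, adjusted p = 0.395), and its interaction was -2.26 (SE 0.28, adjusted p = 2.61e-05). SURF1 also fell with DY131 in DU145-pc3.1, by 0.52 (SE 0.10, adjusted p = 9.88e-04). The median of the 10 was 0.00 in DU145-Esrrb, with changes from -2.08 to 0.48.

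The T-box relatives of EOMES (TBR1, TBX21 and T) had at most 1 count in any library and were not tested. Of the 2 relatives of RBMS3, RBMS1 did not pass in any comparison. RBMS2 did not pass with Esrrb in untreated cells (0.05, SE 0.07, adjusted p = 0.773), was higher with Esrrb among DY131-treated cells (0.22, SE 0.07, adjusted p = 0.0103) and rose with DY131 in both pools, by 0.54 in DU145-pc3.1 (SE 0.07, adjusted p = 1.66e-05) and by 0.72 in DU145-Esrrb (SE 0.07, adjusted p = 3.13e-07), where RBMS3 had negative values that did not pass.

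The genes with the pattern most like ZCWPW2 were ranked by Pearson's r of log2 cpm over the 8 libraries, which share 4 group levels, so r is a description. The first 5 of 13853 other genes were DKK3 (0.974), EIF4A2 (0.973), ZNF330 (0.963), ZNF702P (0.961) and ESRRB (0.957). DKK3, a secreted protein of the dickkopf family, was at 19.3 and 20.1 cpm in untreated DU145-pc3.1, 33.3 and 35.1 in untreated DU145-Esrrb, 17.3 and 19.7 in DY131-treated DU145-pc3.1, and 31.5 and 32.2 in DY131-treated DU145-Esrrb. Its step was far smaller than that of ZCWPW2. ZNF702P, a zinc finger pseudogene, had 0.763 and 0.880, 3.05 and 5.24, 1.12 and 0.793, and 2.34 and 2.94 cpm in the same groups. Of the neighbours AZI2 was ranked 1032 (r = 0.634) and EOMES 1863 (r = 0.524). RBMS3 (r = -0.505) and CMC1 (r = -0.534) were near the other end, at 11832 and 12054. With Spearman's correlation none of the 5 kept a place among the first 5.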

How the data were processed

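RNA of 8 DU145 libraries (4 groups of 2 biological replicates) was prepared with a stranded kit and read from 1 end over 50 bases. Trimming was done by the authors with the FASTX-Toolkit and mapping with TopHat2 on hg18. What they deposited is the raw count per gene from their program MULTICOM-MAP, not normalized. Totals were 7858743 to 11551690 counts. Both columns of DY131-treated DU145-Esrrb carry the same heading and no replicate number. Position of genes, windows and transcripts came from GENCODE 29, and promoters from RefSeq.

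From these deposited counts edgeR 4.0.16 (R 4.3.3) fitted 1 quasi-likelihood model of the 4 groups with TMM scaling (factors 0.971 to 1.02). Genes needed 1 cpm in 2 libraries, which left 13856 genes, and p-values were Benjamini-Hochberg adjusted over all of them. A gene passed at an adjusted p under 0.05 and was called with a log2 fold change of at least 1 as well. Pairs of replicates differed by more than sampling noise. Named were the members, ESRRB, list members called in any comparison, the neighbours nearest to ZCWPW2 and the 5 genes most like it. Genes named beyond these, such as single members of lists, were chosen after their values were seen. The members and lists were chosen with earlier results of these data known. Alternatives were the edgeR exact test, DESeq2 1.42.0, other scalings and filters, only the libraries compared, each library left out, a replicate block, and corrections for length with GC and for exon junctions. The values of some cell type marker lists are not reported here.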

Additional observations from a re-analysis of the deposited data

Results flagged for a closer look

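The interaction term of edgeR's quasi-likelihood test passed for AZI2 and for CMC1, as it did for 33.7% of all genes (17.6% with a negative value). For AZI2 the effect in DU145-Esrrb minus that in DU145-pc3.1 was -0.48 on the log2 scale (SE 0.14, adjusted p = 0.0156), with DU145-Esrrb lower with DY131 in 2 of 2 libraries. For CMC1 it was -0.70 (SE 0.21, adjusted p = 0.0183), again with 2 of 2 treated Esrrb libraries below the untreated ones. Both genes missed the threshold with DESeq2 and without certain single libraries, and AZI2 also missed it after the correction for exon junctions. Groups of 2 libraries were too small to look for single outlying libraries.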

How the results depend on the processing

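Of 507 values of the 5 genes under alternatives, 488 stayed on their side of the threshold (a value that did not pass may have changed sign). Of the rest 18 lost the adjusted p and 1 gained it, and no value that passed changed sign. The 1 was the interaction of ZCWPW2 in a fit that left 1 library in a group, which is a description and not a test. The tally also holds the other ZCWPW2 comparisons that share libraries with its choice, and for those it is no support. The interaction of ZCWPW2, a description, ran from -1.24 to -0.52 as libraries were left out. With a correction for exon junctions, 1 neighbour (CMC1) was called for DY131 in DU145-Esrrb and 1 between the DY131-treated pools, and 0 genes of the wider list for DY131 in DU145-Esrrb. Between DY131-treated DU145-Esrrb and the untreated control pool, 1 neighbour was called with library size alone, with at least 10 counts in every library, with either correction, and in 0 to 1 case as libraries were left out. For the interaction 0 genes of the wider list were called with library size alone, at least 10 counts or the junction correction, and 0 to 1 as libraries were left out. With no threshold on the fold change the neighbours called were 1 (Esrrb untreated), 2 (DY131 in DU145-Esrrb) and 1 (both with DY131). They were 2 for DY131-treated Esrrb against untreated control and 2 for the interaction. Those of the wider list were 2, 13, 11, 13 and 11 in the same order and 4 for DY131 in DU145-pc3.1. Of all genes 4.17%, 58.7%, 50.4%, 59.3% and 33.7% were called in that order, and 37.4% for DY131 in DU145-pc3.1. In the main fit the shares called were 12% (DY131 in DU145-Esrrb), 8.21% (both with DY131), 12.8% (treated Esrrb against untreated control) and 6.28% (interaction). Shares under the other alternatives are not set beside the counts above, which therefore say nothing about the members.

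Over all genes, 80 were called for Esrrb in untreated cells. That count was 48 with DESeq2, 43 with at least 10 counts in every library, 578 with no fold threshold, and 46 to 125 as libraries were left out (46 to 51 without 1 library of either untreated group, 123 or 125 without 1 of DY131-treated DU145-pc3.1). With at least 10 counts the other totals were 315 in place of 580 (DY131 in DU145-pc3.1), 1090 in place of 1666 (DY131 in DU145-Esrrb), 721 in place of 1137 (both with DY131) and 1179 in place of 1778 (treated Esrrb against untreated control). With no fold threshold they were 5185, 8127, 6982 and 8213, and 4673 in place of 870 for the interaction. Of the 5 genes most like ZCWPW2, 0 kept a place among the first 5 with Spearman's correlation and 3 with at least 10 counts. EOMES gave no value at 10 counts, nor did ZCWPW2. The exact test and the fit of only the libraries compared give no interaction. The cause of these differences was not tested, apart from the fewer genes tested at 10 counts.

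Replicate numbers of the sample titles did not pair the libraries, and the column headings number the untreated libraries in another way (correlations of same-numbered deviations 0.09, 0.02 and -0.07 over 6 numbered libraries). With the replicate block ZCWPW2 differed by 5.21 for Esrrb and by -0.15 for DY131 in DU145-pc3.1, AZI2 by 0.48 (adjusted p = 0.0268) for Esrrb, and the counts over all genes were 66 against 69 without the block for Esrrb, and 548 against 564 for DY131. EOMES, and ZCWPW2 in DU145-pc3.1, were limited by depth: at 6 to 16 counts per library only large changes can be seen.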
